A study of Homo sapiens with 12 samples.

Results

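Human endometrial stromal cells given TNFα and IL1β together were compared with the same cells given vehicle, gene by gene across the whole array. The comparison rested on 6 of the 12 arrays of the series, 3 titled for both cytokines and 3 titled as vehicle controls, chosen by these titles alone. All cultures were T-HESC, a commercial line of endometrial stromal cells immortalised with telomerase, so every group carried the same transgene and the puromycin used to select for it. Cells were starved of serum for 24 h and then treated for 48 h with vehicle, with TNFα at 5 ng/ml plus IL1β at 1 ng/ml, or with either cytokine alone at that dose. RNA from each culture went to its own single-colour CodeLink array. Replicates 1, 2 and 3 of every group were passages 13, 28 and 15 of this 1 line, not separate donors, so the p-values measure the spread between passages of a line. The submitters asked which genes respond to these treatments, and endometriosis was among their keywords.

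TNFα and IL1β are secreted by activated macrophages and other cells in inflamed tissue. They bind different receptors, but both routes reach the kinase complex that releases NF-kB dimers into the nucleus, and both activate stress kinases that act through AP-1. Among the textbook targets of NF-kB are chemokines, which attract leukocytes, cytokines such as IL6, and inhibitors that close the circuit again. In the endometrium the stromal fibroblast is a main source of chemokines around menstruation, and inflammatory cytokines are raised in the peritoneal fluid in endometriosis.

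All values below are log2 scaled intensities, on which 0 is about the median probe of an array and a step of 1 is a doubling. Values of an array are given in the order of replicates 1, 2 and 3, changes are the mean with both cytokines minus the mean with vehicle, ± the standard error from limma, with n = 3 arrays per group unless stated. A gene was read from 1 representative probe and called where its limma p, adjusted by Benjamini-Hochberg over all 53671 probes tested, was under 0.05; "rose" and "fell" are kept for called genes. Levels of different genes are probe signals and were not compared with each other.

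The groups were not equally tight. The median standard deviation of a probe was 0.53 on the vehicle arrays and 0.18 on the arrays with both cytokines, with 0.33 in each single-cytokine group. Rank correlation with the remaining arrays was lowest for vehicle replicates 3 and 1 (median Spearman 0.933 and 0.950), against 0.973 to 0.975 for the arrays with both cytokines. Vehicle replicate 3, TNFα replicate 3 and IL1β replicate 2 stood away from the rest along the first principal component; results are also given without these 3 arrays that lay apart. Vehicle replicate 1 lay at the other end of the first component and had the lowest value on the second; results without it are given among those that leave out 1 array. What set these arrays apart was not tested. The stromal identity of the cells was read from 10 measured mesenchymal markers, all above the median signal, a criterion that 6 of 11 epithelial markers also met, with fibroblast activation protein FAP at 6.46 ± 0.33 (SD) with vehicle and the surface antigen THY1 at 7.11 ± 0.65.

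A small set of genes was called, mostly with large changes. Without adjustment 6911 of 53671 probes (12.9%) had a limma p under 0.05. Small changes were often missed in simulated data, so a gene without a call is not shown to be unchanged. Of 18106 genes measured, 63 were called (0.348%), 52 higher (0.287%) and 11 lower (0.0608%). Of the 142 genes that lay more than 4-fold higher, 39 were called, and of the 150 that lay more than 4-fold lower, 7 were. Over probes, 133 of 53671 were called (0.248%), 101 higher (0.188%) and 32 lower (0.0596%); 59 of them had no single gene in the annotation (42 higher, 17 lower) and 52 lay below the median signal (29 higher, 23 lower). On all 133 probes the arrays with both cytokines lay wholly above or wholly below the vehicle arrays. Far more genes were separated in this way without a call: 6.99% of all genes had all 3 both-cytokine arrays above the highest vehicle array, and 13% had all 3 below the lowest. The median gene stood at −0.10, and the median probe moved from −0.13 to −0.00044 under quantile normalization, so small decreases are not distinguished from that shift.

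**Figure D1:**
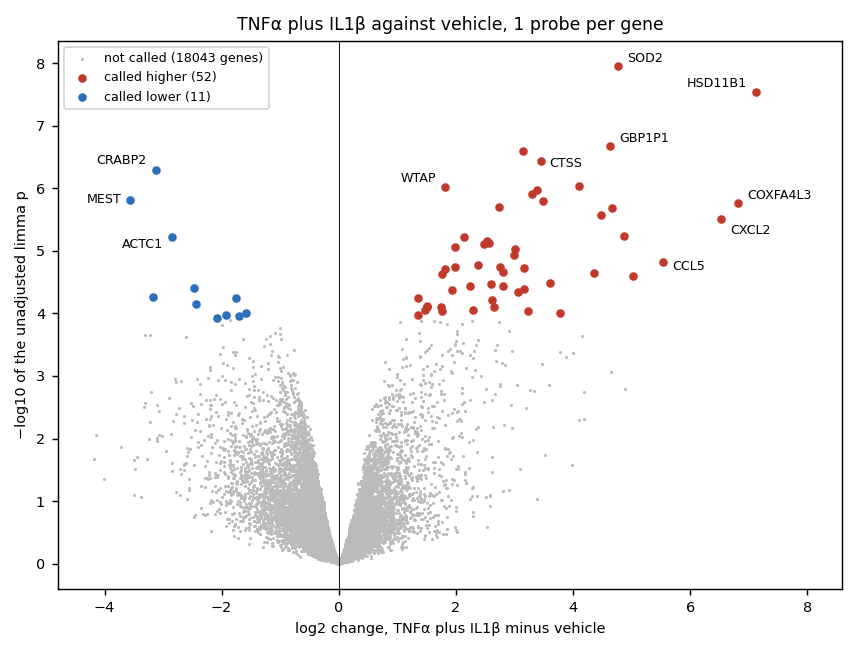
Each point is 1 gene, with the log2 change from vehicle to both cytokines on the horizontal axis and the −log10 of the unadjusted limma p on the vertical axis. The 52 genes called higher (red) reach a change of 7.12 at HSD11B1, and the 11 called lower (blue) reach −3.56 at MEST; grey points were not called.

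The number of calls differed between fits. With the passage as a block, 87 probes were called, 73 shared with the 133, and 38 of the 63 gene calls held. Leaving out 1 vehicle array left 117 to 139 probes called and ended 21 to 25 of the 63 gene calls, and leaving out 1 array with both cytokines left 30 to 74 probes and ended 33 to 44. Without the 3 arrays that lay apart 50 probes and 26 genes were called, and 16 of the 63 kept the call. In a fit of the 6 arrays alone 24 probes were called and 16 of the 63 genes kept the call. No gene changed direction in any of these fits. For the fits on fewer of the same arrays this was fixed in advance, because the groups did not overlap on any called probe. The 18 genes called whichever 1 of the 6 arrays was left out were called with the block too. They were the higher genes HSD11B1, COXFA4L3, CXCL2, SOD2, CCL7, GBP1P1, G0S2, BST2, GNA15, CTSS, IL32, TCIM, ALKAL2, DCLK3 and WTAP, and the lower genes ACTC1, CRABP2 and MEST. Of these 18, CXCL2, CCL7, BST2, GNA15, IL32, TCIM and ACTC1 were not called without the 3 arrays that lay apart (adjusted p = 0.0514 to 0.0613), and GNA15, IL32, DCLK3, WTAP, ACTC1 and MEST were not called in the 6 arrays alone (0.0591 to 0.0796).

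Some chemokines were among the genes with the largest rises, both of the kind that attracts neutrophils and of the kind that attracts monocytes and T cells, while others were not called. Of 6 measured CXCL chemokines that act on neutrophils, 3 rose, and of 13 CC chemokines 3 rose, with median changes of 2.65 and 1.16 against −0.10 over all genes. On every array with both cytokines, 4 of the 6 and 7 of the 13 lay above all vehicle arrays, against 6.99% of all genes; 0.287% of all genes were called higher. CXCL2, a ligand of the neutrophil receptor CXCR2, stood at 0.59, −0.98 and 0.88 with vehicle and at 6.47, 6.86 and 6.73 with both cytokines, and rose by 6.52 ± 0.71 (adjusted p = 0.00669). CXCL8, interleukin 8, was already well above the median probe with vehicle (4.81, 4.11 and 4.63) and reached 9.36, 9.48 and 9.33, a rise of 4.87 ± 0.57 (adjusted p = 0.00944). CXCL3, from the same cluster of genes as CXCL2, went from 1.53, 3.06 and 1.96 to 4.70, 5.09 and 5.17, a rise of 2.80 ± 0.40 (adjusted p = 0.0255). The arrays with both cytokines were tightly grouped for all 3 genes and far above every vehicle array.

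The T cell and monocyte attractant CCL5 had a value on only 2 vehicle arrays, 0.79 and −0.47 on replicates 2 and 3, and stood at 5.49, 5.55 and 6.06 with both cytokines, a rise of 5.54 ± 0.67 (adjusted p = 0.0164). CCL7, a monocyte attractant, went from 0.82, 1.17 and 1.32 to 6.17, 5.17 and 5.95, a rise of 4.66 ± 0.48 (adjusted p = 0.00547). CCL2, the best known monocyte chemokine of stroma, went from 1.08, 1.59 and 2.42 to 4.13, 4.74 and 4.65, a rise of 2.81 ± 0.38 (adjusted p = 0.0192). None of the 3 overlapped between the groups. With the passage as a block CCL5 (adjusted p = 0.0575), CCL2 (0.0598) and CXCL3 (0.0767) were not called. Leaving out vehicle 1 ended CXCL3 (adjusted p = 0.0618), vehicle 2 CCL2 (0.0618), vehicle 3 CXCL3 and CCL5 (0.0634 to 0.0726), both-cytokine replicate 1 CCL5 and CXCL3 (0.0517 to 0.0657), replicate 2 these and CXCL8 and CCL2 (0.0567 to 0.114), and replicate 3 CCL5, CCL2 and CXCL3 (0.0683 to 0.111); without the 3 arrays that lay apart all 6 missed the threshold (0.0514 to 0.0859), and in the 6 arrays alone CCL5, CCL2 and CXCL3 did (0.0796 to 0.203). Among 7 CXCR3 ligands and homeostatic chemokines none was called; the lowest p was that of CXCL10, an interferon-inducible chemokine for T cells, with values of −3.38, −1.37 and −1.20 with vehicle and 2.28, 1.45 and 2.34 with both cytokines, a change of 4.0 ± 0.78 (adjusted p = 0.0888).

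Cytokines came next. Of 20 measured interleukins, colony-stimulating factors and related cytokines 4 rose and none fell, with a median change of 0.65, and 10 were above every vehicle array (0.287% and 6.99% of all genes were called higher and lay above). IL33, an alarmin of the IL1 family that is stored in the nucleus, went from 1.31, −0.64 and 0.68 to 4.05, 4.97 and 5.40, a rise of 4.36 ± 0.59 (adjusted p = 0.0192). IL32, a cytokine with no mouse counterpart, stood at 2.84, 3.92 and 3.62 with vehicle and 6.97, 6.90 and 6.66 with both, a rise of 3.39 ± 0.33 (adjusted p = 0.00472). IL6, the main inducer of the acute phase response, went from 2.19, 2.80 and 3.43 to 6.05, 5.36 and 5.99, a rise of 3.0 ± 0.38 (adjusted p = 0.0134). EBI3, the shared subunit of IL27 and IL35, went from 0.62 ± 0.59 to 3.19 ± 0.29 (SD), a rise of 2.57 ± 0.31 (adjusted p = 0.00999). In none of the 4 did the groups overlap, although IL33 varied by more than 1 log2 unit within both groups. All 4 were called with the passage as a block and without any 1 vehicle array. The calls ended for IL6 without both-cytokine replicate 1 (adjusted p = 0.0570), for EBI3 and IL33 without replicate 2 (0.0552 to 0.0965) and for IL6 and IL33 without replicate 3 (0.0681 to 0.0930), and for IL32, IL33 and EBI3 without the 3 arrays that lay apart (0.0514 to 0.0745). None of the 4 was called in the 6 arrays alone (adjusted p = 0.0718 to 0.173).

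The NF-kB circuit itself was read from 30 measured subunits, IkB proteins and feedback genes, of which 4 rose, none fell, and 19 lay above every vehicle array (median 0.83), against 0.287% of all genes called higher and 6.99% lying above. TNFAIP3, the ubiquitin-editing enzyme A20 that switches NF-kB signalling off, went from 0.79, 0.01 and −0.30 to 3.35, 3.28 and 3.35, a rise of 3.16 ± 0.46 (adjusted p = 0.0274). TNIP3, which binds A20, went from −0.78, −2.02 and −1.61 to 1.44, 1.70 and 1.93, a rise of 3.16 ± 0.42 (adjusted p = 0.0181). MAP3K8, the kinase TPL2 that links the same pathway to ERK, went from 0.82, −0.03 and −0.50 to 2.65, 2.55 and 2.88, a rise of 2.60 ± 0.37 (adjusted p = 0.0254). A second, far dimmer MAP3K8 probe gave 0.24 ± 0.71 without a call. ZC3H12A, a ribonuclease that degrades cytokine mRNAs such as that of IL6, rose by 1.98 ± 0.26 (adjusted p = 0.0177). TNFAIP3, TNIP3 and ZC3H12A are known as restraints on the response, and they rose beside the cytokines. Among 25 IRF, STAT, CEBP and AP-1 transcription factors only CEBPD, an acute phase activator, was called; it went from 2.31, 2.36 and 2.10 to 4.80, 4.69 and 4.69, a rise of 2.47 ± 0.30 (adjusted p = 0.0102). With the passage as a block ZC3H12A alone of these 5 was not called (adjusted p = 0.0520). TNIP3, MAP3K8 and TNFAIP3 lost the call without vehicle 2 (0.0534 to 0.0750), without vehicle 3 (0.0524 to 0.0653) or without both-cytokine replicate 1 (0.0532 to 0.0934), these and ZC3H12A without replicate 3 (0.0888 to 0.111), all 5 without replicate 2 (0.0590 to 0.110), and all but ZC3H12A without the 3 arrays that lay apart (0.0532 to 0.0829). CEBPD alone of the 5 was called in the 6 arrays alone, with the others at 0.0796 to 0.177.

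Upstream sequence was read for the called genes because several of them are textbook NF-kB or interferon targets. RefSeq promoter windows on build GRCh38.p14 matched 37 of the 52 higher and 9 of the 11 lower genes, and the 250 bases before the first listed start were searched on both strands. The NF-kB consensus site was found in 9 of the 37 (24.3%), namely CXCL2, CXCL3, IL6, IL32, TNFAIP3, TNIP3, MAP3K8, UBD and BST2, against 5.05% of all 27305 promoters in the table and 1 of the 9 lower genes, CAPG. Stretches of 140 bases of 4 of these are shown because their genes carry the chemokine, cytokine and feedback results; capitals mark the match, and in TNFAIP3 there are 2 matches.
CXCL2 (chr4:74099196-74099335, minus strand): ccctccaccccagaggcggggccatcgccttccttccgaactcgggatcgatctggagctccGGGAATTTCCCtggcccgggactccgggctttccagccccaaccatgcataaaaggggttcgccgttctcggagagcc
IL6 (chr7:22727060-22727199, plus strand): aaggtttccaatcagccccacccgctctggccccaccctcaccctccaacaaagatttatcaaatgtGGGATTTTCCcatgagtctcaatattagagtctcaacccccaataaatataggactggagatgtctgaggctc
IL32 (chr16:3065263-3065402, plus strand): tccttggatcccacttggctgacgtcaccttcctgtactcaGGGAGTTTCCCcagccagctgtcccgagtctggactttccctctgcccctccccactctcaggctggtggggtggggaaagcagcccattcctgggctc
TNFAIP3 (chr6:137867119-137867258, plus strand): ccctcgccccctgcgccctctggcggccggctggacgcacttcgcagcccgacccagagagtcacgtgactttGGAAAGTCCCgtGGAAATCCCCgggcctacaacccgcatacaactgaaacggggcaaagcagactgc
The first base of the match lay 78 bases before the start in CXCL2, 73 in IL6, 99 in IL32, and 67 for the farther one in TNFAIP3; CXCL2 and IL32 match on both strands, 1 base apart. A match describes the letters only, and no binding was measured.

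Interferon-stimulated genes and genes of antigen processing formed the next group, although no interferon was added. Of 40 measured antiviral genes 5 rose, none fell and 19 lay above every vehicle array (median 0.52), where 0.287% of all genes were called higher and 6.99% lay above. Changes were positive in 35 of the 40, against 40.5% of all genes. Not all members moved far. Named after their values were seen, IFIT1 stood at 0.49 ± 0.47, IFIT3 at 0.34 ± 0.29, IFIT2 at −0.07 ± 0.19 and RSAD2 at −0.10 ± 0.29. PARP14, chosen likewise, lay below every vehicle array at −0.44 ± 0.17. BST2, tetherin, which holds budding virus at the cell surface, went from −0.23, −0.79 and −1.11 to 3.23, 3.45 and 3.50, a rise of 4.10 ± 0.39 (adjusted p = 0.00470). IFI44L, a cytoplasmic antiviral protein, went from 0.49, −0.51 and −2.0 to 3.01, 2.96 and 3.35, a rise of 3.78 ± 0.61 (adjusted p = 0.0447). IFI27, a small protein of the mitochondrial and nuclear membranes, went from 1.64, 2.70 and 3.87 to 6.13, 6.52 and 6.41, a rise of 3.61 ± 0.51 (adjusted p = 0.0252). Vehicle arrays were wide apart for IFI44L and IFI27, while the arrays with both cytokines lay close together. EPSTI1, an interferon-response protein first found in stroma, and ISG20, an exonuclease against viral RNA, rose by 2.53 ± 0.30 (adjusted p = 0.00992) and 1.93 ± 0.28 (adjusted p = 0.0284). The pseudogene GBP1P1 of the guanylate-binding proteins went from −1.72, −1.36 and −2.11 to 3.06, 2.78 and 2.89, a rise of 4.64 ± 0.38 (adjusted p = 0.00267). Its probe may also read the closely related coding genes, and a second, dimmer GBP1P1 probe gave 1.23 ± 0.37 without a call. GBP1P1 was the 1 call among 7 measured guanylate-binding genes (median 0.41). Of the coding genes GBP5 stood at 3.19 ± 0.83 (adjusted p = 0.175), GBP1 at 0.64 ± 0.25 and GBP3 at 0.41 ± 0.32. GBP2 stood at −0.12 ± 0.26, GBP6 at −0.75 ± 0.67 and GBP4 at −1.26 ± 0.49. Of 24 genes of MHC class I and II presentation, CTSS was the 1 called, a lysosomal protease that trims the invariant chain; it went from 1.60, 1.27 and 1.11 to 4.49, 4.90 and 4.94, a rise of 3.45 ± 0.30 (adjusted p = 0.00282), and 11 of the 24 lay above every vehicle array. UBD, the ubiquitin-like protein FAT10, and LAP3, a leucine aminopeptidase that trims peptides, are in no list; they rose by 3.06 ± 0.45 (adjusted p = 0.0290) and 1.81 ± 0.24 (adjusted p = 0.0181).

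The interferon-stimulated response element, searched as GAAANNGAAA, was found in 6 of the 37 promoters of higher genes (16.2%), those of BST2, IFI44L, IFI27, EPSTI1, ISG20 and LAP3, against 3.07% of all promoters and 0 of the 9 of lower genes. The 4 shown are those of the antiviral genes with the largest changes, with each match in capitals.
BST2 (chr19:17405631-17405770, minus strand): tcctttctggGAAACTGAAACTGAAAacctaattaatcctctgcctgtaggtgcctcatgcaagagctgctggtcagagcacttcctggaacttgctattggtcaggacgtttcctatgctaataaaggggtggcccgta
IFI44L (chr1:78620308-78620447, plus strand): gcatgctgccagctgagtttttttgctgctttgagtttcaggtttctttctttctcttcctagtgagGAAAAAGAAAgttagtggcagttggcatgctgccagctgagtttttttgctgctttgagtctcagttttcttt
IFI27 (chr14:94110596-94110735, plus strand): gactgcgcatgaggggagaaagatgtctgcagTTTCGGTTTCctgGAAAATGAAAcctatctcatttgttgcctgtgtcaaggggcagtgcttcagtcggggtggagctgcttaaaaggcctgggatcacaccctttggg
EPSTI1 (chr13:42992242-42992381, minus strand): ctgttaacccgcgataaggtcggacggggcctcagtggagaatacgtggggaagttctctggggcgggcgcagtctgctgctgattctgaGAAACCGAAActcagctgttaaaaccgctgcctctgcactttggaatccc
BST2 has a pair of overlapping matches, and IFI27 has 1 on each strand. The AP-1 site (TGA, any base, TCA) was found in 16.2% of the 37 against 6.6% of all promoters, the STAT dimer site TTCNNNGAA in 13.5% against 6.78%, and TATAAA in 13.5% against 11.1%. The shares of 37 promoters rest on few genes, and no test was made.

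Of these 9 genes, IFI44L, UBD, ISG20 and IFI27 were not called with the passage as a block (adjusted p = 0.0513 to 0.0711), and IFI44L missed the threshold after quantile normalization (0.0599). Single arrays decided several calls: ISG20 and UBD were lost without vehicle 1 (0.0705 to 0.0778), IFI27, UBD and IFI44L without vehicle 2 (0.0660 to 0.0854), UBD, IFI44L and ISG20 without vehicle 3 (0.0558 to 0.0616), LAP3, IFI27, UBD, ISG20 and IFI44L without both-cytokine replicate 1 (0.0612 to 0.127) or replicate 3 (0.0930 to 0.161), and these with EPSTI1 without replicate 2 (0.0573 to 0.142). Of the 9, GBP1P1, CTSS and IFI27 were called without the 3 arrays that lay apart. BST2, GBP1P1 and CTSS were called in every one of the 6 fits without 1 array. The 6 arrays alone did not call ISG20, LAP3, IFI27 and IFI44L (0.131 to 0.220).

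An enzyme of steroid metabolism had the largest fitted change. HSD11B1, the reductase that regenerates cortisol from cortisone inside the cell, went from 0.0039, −1.39 and −0.21 to 6.30, 6.72 and 6.76, a rise of 7.12 ± 0.47 (adjusted p = 0.000518) and a second probe gave 6.85 ± 0.45 (adjusted p = 0.000518). It was the 1 called gene among 26 of steroid metabolism, steroid receptors and glucocorticoid response, whose median change was 0.12. SOD2, the manganese superoxide dismutase of mitochondria, went from 1.70, 2.17 and 2.47 to 6.83, 7.02 and 6.82, a rise of 4.77 ± 0.29 (adjusted p = 0.000518) and the lowest p of all genes. A second, far dimmer SOD2 probe gave 0.28 ± 0.18 without a call. PTGES, the terminal synthase of prostaglandin E2, went from 1.12, 0.58 and 0.38 to 3.40, 3.72 and 4.0, a rise of 3.01 ± 0.37 (adjusted p = 0.0114), while PTGS2, named after its value was seen, stood at 0.45 ± 0.25 without a call. Prostaglandin genes as a whole had 1 of 19 called and a median of 0.13, where 0.287% of all genes were called higher.

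Of 24 measured genes of tryptophan, tetrahydrobiopterin, NAD and lipid droplet metabolism 4 rose, where 0.287% of all genes were called higher. The list had a median change of 0.01, with 13 of the 24 positive. Above every vehicle array lay 8 members (33.3%) and below it 2 (8.33%), against 6.99% and 13% of all genes. G0S2, an inhibitor of the triglyceride lipase of lipid droplets, went from 0.97, 1.89 and 2.13 to 5.75, 6.27 and 6.40, a rise of 4.48 ± 0.48 (adjusted p = 0.00599). KYNU, kynureninase of tryptophan breakdown, went from −1.01, −0.60 and −1.83 to 1.51, 2.51 and 2.22, a rise of 3.23 ± 0.52 (adjusted p = 0.0431). GCH1, which makes the first step of tetrahydrobiopterin synthesis, went from −3.72, −2.63 and −2.64 to −0.66, −0.14 and −0.22, a rise of 2.65 ± 0.42 (adjusted p = 0.0399) on a dim probe. NAMPT, the rate-limiting enzyme of NAD salvage, rose by 2.29 ± 0.37 (adjusted p = 0.0424), and its second probe gave 0.85 ± 0.28 without a call. COXFA4L3, a small mitochondrial protein related to a subunit of cytochrome c oxidase, went from −2.77, −0.98 and −1.57 to 4.71, 5.15 and 5.29, a rise of 6.82 ± 0.70 (adjusted p = 0.00542). The vehicle values of HSD11B1 and COXFA4L3 lay around or below the median probe and were not shown to be above background, so their changes depend on the floor and stood at 6.91 and 6.37 with an offset of 0.1 before the log. FTMT, the ferritin of mitochondria, rose by 1.76 ± 0.28 (adjusted p = 0.0431). HSD11B1, SOD2, G0S2 and COXFA4L3 kept the call in every fit without 1 array, with the block and without the 3 arrays that lay apart. GCH1, NAMPT, FTMT and KYNU did not keep it with the block (adjusted p = 0.0564 to 0.107). GCH1, NAMPT and KYNU lost it without vehicle 1 (0.0797 to 0.0910) or vehicle 3 (0.0584 to 0.0869), these and FTMT without vehicle 2 (0.0620 to 0.0908), KYNU, GCH1 and FTMT without both-cytokine replicate 1 (0.0780 to 0.127), and all 4 with PTGES without replicate 2 (0.0655 to 0.166), replicate 3 (0.0614 to 0.164) or the 3 arrays that lay apart (0.0725 to 0.0796); these 5 were not called in the 6 arrays alone either (0.0718 to 0.276).

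**Figure D2:**
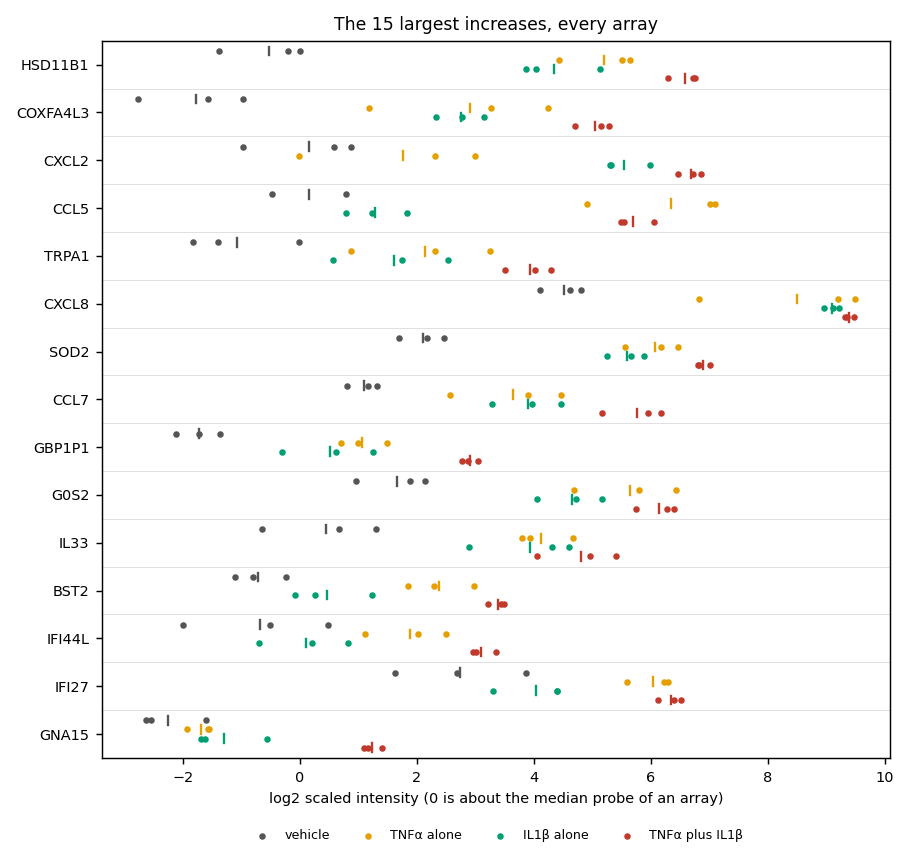
Log2 scaled intensity (horizontal axis) of the 15 genes with the largest called increases on every array of the series, with dots for arrays and ticks for group means. In each gene the red arrays with both cytokines lie wholly to the right of the grey vehicle arrays. For GNA15 the single-cytokine arrays lie nearer to the vehicle arrays than to the arrays with both. For CCL5 the arrays with TNFα alone (7.02, 4.92 and 7.10) lie on either side of those with both (5.49, 5.55 and 6.06).

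Receptors, ligands and adhesion proteins of the cell surface were fewer. TRPA1, an ion channel opened by irritants and oxidants, went from −0.02, −1.83 and −1.39 to 3.50, 4.03 and 4.30, a rise of 5.02 ± 0.69 (adjusted p = 0.0206). GNA15, an alpha subunit of the Gq class of G proteins, went from −1.60, −2.63 and −2.55 to 1.18, 1.10 and 1.41, a rise of 3.49 ± 0.35 (adjusted p = 0.00542). ALKAL2, a ligand of the receptor tyrosine kinase ALK, went from −2.02, −2.19 and −2.50 to 0.72, 0.95 and 1.06, a rise of 3.14 ± 0.26 (adjusted p = 0.00267). ADORA2A, the adenosine receptor that raises cyclic AMP, rose by 2.76 ± 0.37 (adjusted p = 0.0177). TNFAIP6, the protein TSG6 that crosslinks hyaluronan, went from 5.06, 5.75 and 5.80 to 7.28, 7.32 and 7.30, a rise of 1.76 ± 0.24 (adjusted p = 0.0195); it was the 1 call among 9 hyaluronan genes. Of 20 adhesion molecules ICAM2 and NINJ1 rose, by 1.75 ± 0.27 (adjusted p = 0.0399) and 1.36 ± 0.22 (adjusted p = 0.0458). The 20 had a median of 0.22, with 3 above and 3 below every vehicle array (15% each), against 6.99% and 13% of all genes. Of all genes 0.287% were called higher. VCAM1, named after its value was seen, stood at −0.04 ± 0.18.

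TNFAIP6, NINJ1 and ICAM2 were not called with the block (adjusted p = 0.0634 to 0.0912). Losses without a single array were NINJ1 and ICAM2 for vehicle 1 (0.0736 to 0.0797), TRPA1 and NINJ1 for vehicle 2 (0.0620 to 0.0992), TRPA1, NINJ1 and ICAM2 for vehicle 3 (0.0584 to 0.0760), and ADORA2A, TRPA1, TNFAIP6, NINJ1 and ICAM2 for both-cytokine replicate 1 (0.0536 to 0.123), 2 (0.0791 to 0.166) or 3 (0.0888 to 0.187). ALKAL2 alone of these 7 was called without the 3 arrays that lay apart and in the 6 arrays alone, where the others had an adjusted p of 0.0718 to 0.260.

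The remaining 12 higher genes are in none of the lists. TCIM, a small regulator of transcription and immune response, went from 0.43, 0.20 and 0.35 to 3.62, 3.92 and 3.36, a rise of 3.30 ± 0.32 (adjusted p = 0.00508). DCLK3, a kinase of the doublecortin-like family, went from 0.46, 0.73 and 0.87 to 3.37, 3.16 and 3.74, a rise of 2.74 ± 0.28 (adjusted p = 0.00547); a second, much dimmer probe gave −0.69 ± 0.42 without a call. WTAP, a subunit of the complex that writes N6-methyladenosine on mRNA, went from 4.31, 4.39 and 4.23 to 6.18, 6.08 and 6.09, the tightest groups of these, a rise of 1.81 ± 0.17 (adjusted p = 0.00470). A second WTAP probe, itself above the median signal, gave 0.64 ± 0.35 without a call (adjusted p = 0.471). LCTL, a membrane protein of the lactase-like family, rose by 2.38 ± 0.31 (adjusted p = 0.0169), and DMRT3, a transcription factor of the doublesex family, by 2.14 ± 0.25 (adjusted p = 0.00944). RFLNA, which regulates filamin, rose by 2.61 ± 0.40 (adjusted p = 0.0349), and the uncharacterised locus LOC105376292 by 1.98 ± 0.24 (adjusted p = 0.0108). FBXO15, TMEM121B, FGFBP2, CHMP4C and TMEM170B rose by 1.36 to 2.25. The last 3 lay below the median signal and stood at 1.20, 1.14 and 1.07 after an offset of 0.1 was added before the log, and a trended robust variance prior ended the calls of CHMP4C and TMEM170B (adjusted p = 0.0511 to 0.0626). GNA15, ALKAL2, UBD, GCH1, RFLNA, LCTL and ICAM2 were also read from probes below the median signal.

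With the block TMEM121B, FBXO15, FGFBP2, TMEM170B and CHMP4C were not called (adjusted p = 0.0697 to 0.106). RFLNA lost the call without vehicle 3 (0.0615). Together with those 5 it was lost without vehicle 1 (0.0574 to 0.0872) or vehicle 2 (0.0555 to 0.0883), with them and LCTL without both-cytokine replicate 1 (0.0702 to 0.133), with them and LOC105376292 without replicate 3 (0.0582 to 0.160), and with them, LCTL, LOC105376292 and DMRT3 without replicate 2 (0.0573 to 0.163). DCLK3, WTAP, LCTL and CHMP4C were called without the 3 arrays that lay apart, and the other 8 had an adjusted p of 0.0559 to 0.0829. In the 6 arrays alone TCIM was called and the other 11 were not (0.0591 to 0.220).

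Fewer genes fell. MEST, an imprinted gene expressed from the paternal copy, went from 3.74, 3.53 and 2.95 with vehicle to −0.37, 0.47 and −0.56 with both cytokines, and fell by 3.56 ± 0.36 (adjusted p = 0.00542). CRABP2, the cytosolic carrier that hands retinoic acid to the nucleus, went from 5.16, 5.20 and 5.10 to 1.94, 2.19 and 1.94, and fell by 3.13 ± 0.28 (adjusted p = 0.00337). ACTC1, cardiac alpha actin, which contractile fibroblasts also express, went from 6.26, 6.38 and 6.92 to 3.58, 3.90 and 3.55, and fell by 2.84 ± 0.33 (adjusted p = 0.00944). For these 3 the distance between the groups was several times the spread within either. Among 24 contractile and actin genes CAPG, which caps actin filaments, also fell, from 2.67, 3.86 and 3.26 to 1.47, 1.49 and 1.55, by 1.76 ± 0.27 (adjusted p = 0.0332). Of all genes 0.0608% were called lower. The list had a median of −0.28, and −0.04 after quantile normalization, so no direction is given for it. Below every vehicle array lay 4 members (16.7%, against 13% of all genes).

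ITGA4, the integrin subunit that binds VCAM1 and fibronectin, went from 4.24, 3.63 and 2.95 to 1.58, 1.46 and 1.50, and fell by 2.09 ± 0.35 (adjusted p = 0.0483); a second, dim probe gave −0.42 ± 0.61. It was the 1 call among 17 integrin subunits (median 0.12), where 0.0608% of all genes were called lower. CORIN, a serine protease that processes natriuretic peptide and is made in decidual tissue, went from 1.38, 1.02 and 0.78 to −0.27, −0.79 and −0.85, and fell by 1.70 ± 0.28 (adjusted p = 0.0466). KRT18, an intermediate filament of simple epithelia that cultured stroma can also express, went from 3.28, 3.88 and 3.35 to 1.63, 2.13 and 2.01, and fell by 1.58 ± 0.26 (adjusted p = 0.0447); its second probe gave −1.52 ± 0.27 (adjusted p = 0.0635). The arrays with both cytokines lay close together for ITGA4 and CAPG, while the vehicle arrays spread over more than 1 unit.

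MEST, CRABP2 and ACTC1 kept the call in every fit without 1 array and with the block, and MEST and CRABP2 also without the 3 arrays that lay apart, where ACTC1 had an adjusted p of 0.0532. With the block CAPG (adjusted p = 0.0526) and ITGA4 (0.111) were not called. KRT18, ITGA4 and CORIN were lost without vehicle 1 (0.0631 to 0.1003) or vehicle 2 (0.0908 to 0.0978), CORIN, KRT18 and CAPG without vehicle 3 (0.0559 to 0.0634), and all 4 without both-cytokine replicate 1 (0.0741 to 0.150), 2 (0.117 to 0.178) or 3 (0.121 to 0.187). The adjusted p of these 4 ran from 0.0652 to 0.0875 without the 3 arrays that lay apart. Only CRABP2 of these 7 was called in the 6 arrays alone; ACTC1 (0.0591) and MEST (0.0796) were not, and the other 4 reached at most 0.255.

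Of the 11 lower genes 5 were read from dim probes, below the median signal: CORIN, described above, and 4 others. ADAMTS18, a secreted metalloprotease, stood at −2.95, −3.05 and −2.32 with vehicle and had a value on only 2 arrays with both cytokines (−6.51 and −5.41 on replicates 1 and 3). TLE6, a corepressor of the Groucho family, went from −1.54, −1.69 and −0.59 to −3.25, −3.67 and −4.29. A second TLE6 probe gave −0.50 ± 0.61 without a call. NCF4, a cytosolic subunit of the phagocyte NADPH oxidase, went from −1.15, −2.08 and −2.16 to −3.94, −4.54 and −4.25, and RTKN2 from −0.97, −0.60 and −0.53 to −2.84, −2.90 and −2.11. Their changes were −3.18, −2.46, −2.45 and −1.92 (adjusted p = 0.0263 to 0.0458). With an offset of 0.1 before the log these shrank to −1.16, −1.55, −1.35 and −1.44, and ADAMTS18 and NCF4 were no longer called (0.0546 and 0.0573); a trended robust variance prior also ended these 2 calls (0.0872 to 0.0981). The block ended the calls of all but RTKN2 (0.0693 to 0.0912), and quantile normalization that of NCF4 (0.106). All 4 were lost without vehicle 1 (0.0510 to 0.0673), both-cytokine replicate 2 (0.0590 to 0.175), replicate 3 (0.0622 to 0.142) or the 3 arrays that lay apart (0.0829 to 0.0878), and ADAMTS18, NCF4 and RTKN2 without vehicle 2 (0.0620 to 0.0983), vehicle 3 (0.0539 to 0.0872) or both-cytokine replicate 1 (0.0901 to 0.172). None of the 4 was called in the 6 arrays alone (0.177 to 0.220).

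**Figure D3:**
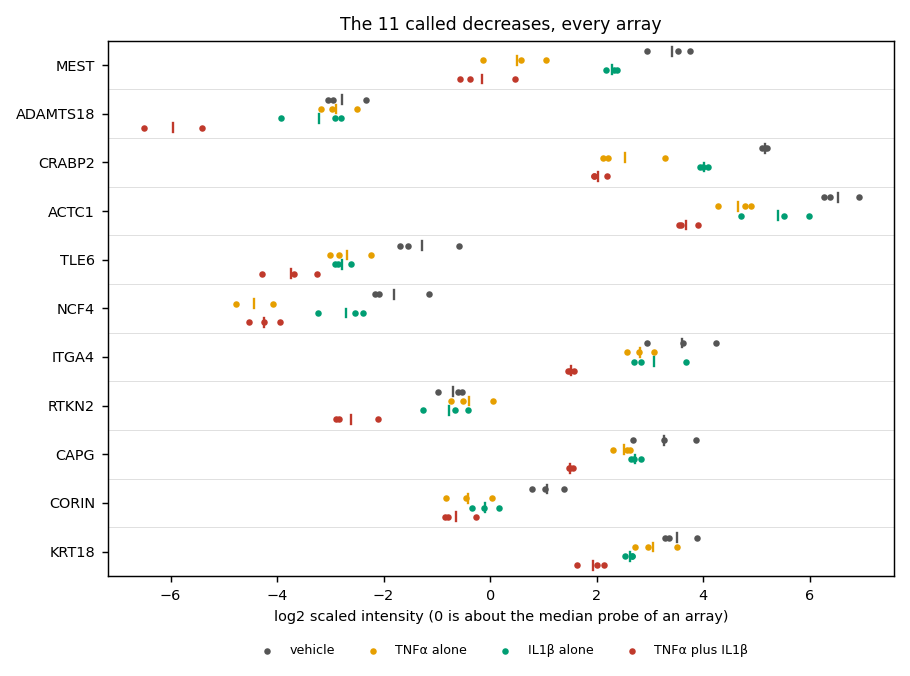
Log2 scaled intensity (horizontal axis) of the 11 genes called lower with both cytokines, on every array, with dots for arrays and ticks for group means. CRABP2, MEST and ACTC1 show wide gaps between the red arrays with both cytokines and the grey vehicle arrays; ADAMTS18, TLE6, NCF4 and RTKN2 lie mostly below 0, the median probe.

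The level with both cytokines was also set beside that with each cytokine alone. In limma fits of these contrasts 1 of 53671 probes (0.00186%) differed between both cytokines and TNFα alone, a probe with no single gene (4.07 ± 0.39, adjusted p = 0.0494), where 2729 probes had an unadjusted p under 0.05. Between both cytokines and IL1β alone 0 of 53671 probes were called (0%), with 2347 at an unadjusted p under 0.05. None of the 63 called genes was called in either contrast, so the orders below are group means that were not separated by test; these examples were chosen after their values were seen. GNA15 stood at −2.26 ± 0.57 with vehicle, −1.69 ± 0.21 with TNFα, −1.29 ± 0.63 with IL1β and 1.23 ± 0.16 with both (SD); both minus TNFα was 2.92 ± 0.35 (adjusted p = 0.110) and both minus IL1β 2.52 ± 0.35 (adjusted p = 0.188). DCLK3 stood at 0.68 ± 0.21, 0.79 ± 0.17, 1.78 ± 0.55 and 3.43 ± 0.30 in the same order, and both minus TNFα, 2.63 ± 0.28 (adjusted p = 0.0771), was the lowest p of that contrast among the called genes. LCTL stood at −1.41 ± 0.57, −1.07 ± 0.31, −1.53 ± 0.30 and 0.97 ± 0.28, with both minus IL1β at 2.50 ± 0.31 (adjusted p = 0.188). For these 3 genes each single-cytokine mean lay closer to the vehicle mean than to the mean with both.

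In CCL5, IL32, UBD, CXCL2 and CRABP2 at least 1 single-cytokine mean lay closer to the mean with both than to the vehicle mean. CCL5 stood at 6.34 ± 1.23 with TNFα and 5.70 ± 0.31 with both, against 1.28 ± 0.52 with IL1β. IL32 stood at 7.59 ± 0.02 with TNFα and 6.85 ± 0.16 with both, and UBD at 0.67 ± 0.70 and 0.89 ± 0.08 against −2.04 ± 0.92 with IL1β. CXCL2 showed the opposite order, 5.55 ± 0.39 with IL1β and 6.69 ± 0.20 with both against 1.76 ± 1.58 with TNFα. In IL6, as in GNA15, DCLK3 and LCTL, each single-cytokine mean lay closer to the vehicle mean, 2.81 ± 0.62. IL6 stood at 3.55 ± 0.27 with TNFα, 3.86 ± 0.58 with IL1β and 5.80 ± 0.39 with both, and both minus TNFα was 2.25 ± 0.38 (adjusted p = 0.370). Among the lower genes RTKN2 stood at −0.40 ± 0.41 with TNFα and −0.78 ± 0.43 with IL1β, near vehicle at −0.70 ± 0.24, and at −2.62 ± 0.44 with both. CRABP2 stood at 2.53 ± 0.65 with TNFα, close to 2.02 ± 0.14 with both, and at 4.01 ± 0.08 with IL1β.

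**Figure D4:**
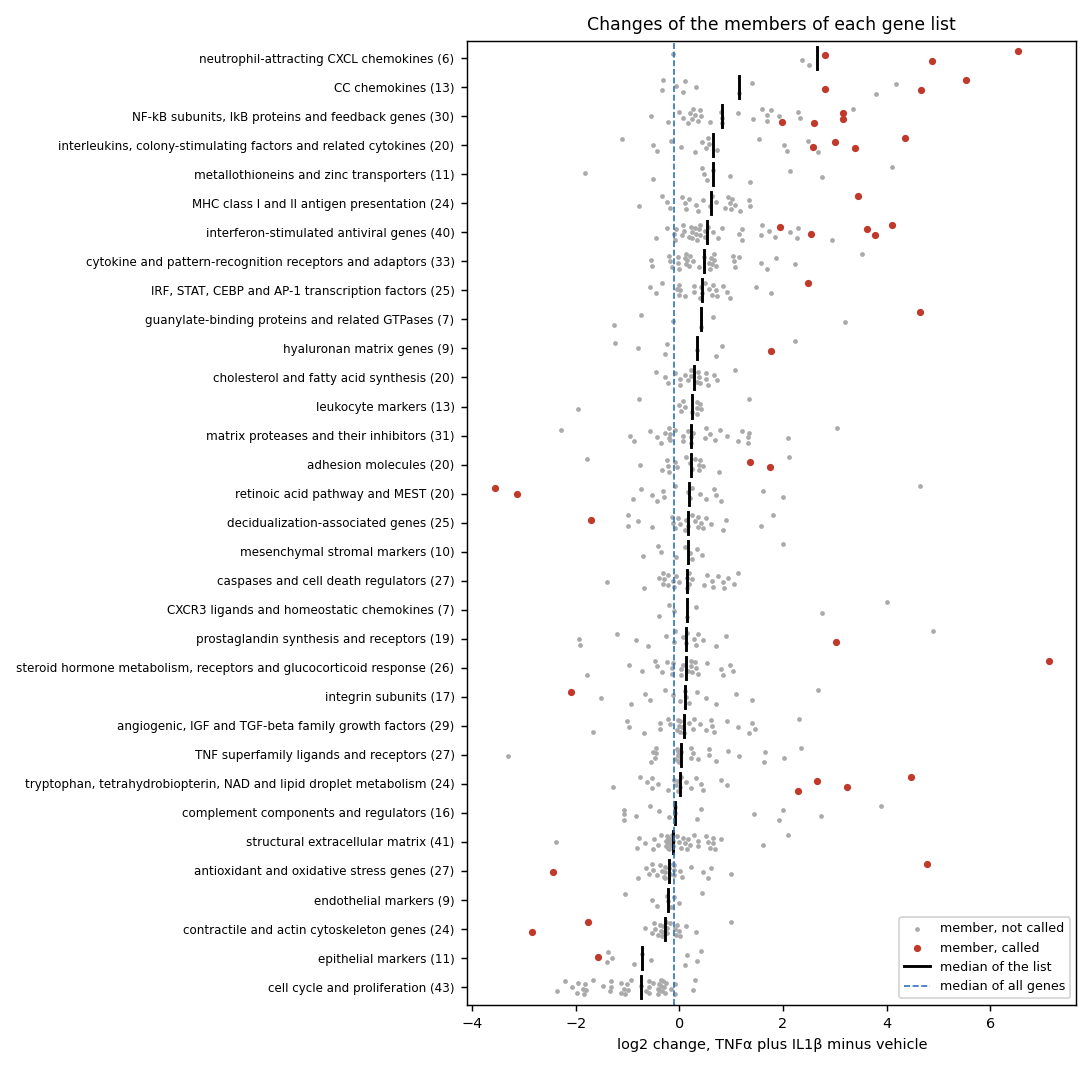
Each row is 1 of 33 gene lists, with the number of measured members in brackets; dots are members on a horizontal axis of log2 change from vehicle to both cytokines, red where called, and the black tick is the median of the list beside the dashed median of all genes, −0.10. Chemokine medians of 2.65 and 1.16 lie farthest right, and the cell cycle median of −0.73 farthest left.

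Several lists held no call but had members far from vehicle; the member with the lowest p is named. Among 33 cytokine and pattern-recognition receptors and adaptors (median 0.47) it was the flagellin receptor TLR5, at 1.08 ± 0.21 (adjusted p = 0.0850). Among 27 TNF superfamily ligands and receptors (median 0.02) the costimulatory receptor CD40 came closest, at −1.91, −1.17 and −1.75 with vehicle and 0.24, −0.32 and 0.14 with both, a change of 1.63 ± 0.27 (adjusted p = 0.0501), with no overlap between the groups. FGF2, a growth factor for fibroblasts and endothelium, went from 4.43, 4.65 and 3.97 to 5.68, 5.87 and 5.70, a change of 1.40 ± 0.23 (adjusted p = 0.0501), first of 29 growth factors (median 0.10). C1QTNF1, a secreted relative of complement C1q, stood at 2.73 ± 0.46 (adjusted p = 0.0502), first of 16 complement genes; their median was −0.09 and 0.25 after quantile normalization. These 3 missed the threshold narrowly and were not called. MMP3, stromelysin, was the lowest of 31 matrix proteases and inhibitors at 3.04 ± 0.70 (adjusted p = 0.138) (median 0.23), and the zinc-binding MT1F of 11 metallothioneins and zinc transporters at 2.75 ± 0.63 (adjusted p = 0.140) (median 0.65). Structural matrix genes had 0 of 41 called; their median was −0.13 and 0.21 after quantile normalization, so no direction is given, and the small proteoglycan ASPN had the lowest p at −2.37 ± 0.54 (adjusted p = 0.137). Caspases and cell death regulators (27 genes, median 0.16) had CASP4 lowest at 0.86 ± 0.18 (adjusted p = 0.116), and cholesterol and fatty acid synthesis (20 genes, median 0.29) INSIG1 at 0.66 ± 0.32 (adjusted p = 0.423). In the list of the retinoic acid pathway, to which MEST was added, CRABP2 and MEST alone were called of 20 measured, and CORIN alone of 25 decidualization genes. The medians of these lists were 0.19 and 0.16, and 0.0608% of all genes were called lower.

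Other list members differed widely without passing the test. Named after their values were seen, SLCO2A1, a prostaglandin transporter, stood at 4.89 ± 1.15 (adjusted p = 0.145), the retinal dehydrogenase ALDH1A3 at 4.65 ± 1.0 (adjusted p = 0.122), the eosinophil attractant CCL11 at 4.18 ± 1.0 (adjusted p = 0.152), and the zinc importer SLC39A8 at 4.11 ± 1.12 (adjusted p = 0.201). CFB, factor B of the alternative complement pathway, stood at 3.89 ± 0.77 (adjusted p = 0.0952), CCL8 at 3.78 ± 0.73 (adjusted p = 0.0883), and the NF-kB target TNFAIP2 at 3.34 ± 0.79 (adjusted p = 0.151). HERC6, an interferon-induced ubiquitin ligase, missed the threshold at 2.27 ± 0.38 (adjusted p = 0.0501). On the lower side TNFSF11, the ligand RANKL, stood at −3.31 ± 0.59 (adjusted p = 0.0669). In every one of these 9 the arrays with both cytokines did not overlap the vehicle arrays. Of all genes 6.99% lay wholly above and 13% wholly below. The 9 were chosen with their values seen, so this separation adds no support to them.

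Cell cycle genes lay lower as a group without any single call. Of 43 measured members 41 had a negative change, where 40.5% of all genes had a positive one, the median was −0.73 (−0.51 to −1.16 over the settings tried), and 16 lay below every vehicle array (37.2%, against 13% of all genes) while 1 lay above. CCNB2, a mitotic cyclin, stood at 2.13, 3.76 and 2.35 with vehicle and 0.51, 0.14 and 1.0 with both cytokines, a change of −2.20 ± 0.55 (adjusted p = 0.164). The survivin gene BIRC5 stood at −2.36 ± 0.60 (adjusted p = 0.169), cyclin CCNB1 at −1.82 ± 0.56 (adjusted p = 0.230) and the kinase CDK1 at −1.84 ± 0.59 (adjusted p = 0.242), named after their values were seen. With array weights 13 members were called, in a fit that called 749 of all 18106 genes. The share of dividing cells and the level per cell cannot be told apart in RNA of whole cultures.

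Markers of other cell types were read from the same arrays, and several epithelial ones lay lower with both cytokines. Of 11 measured epithelial markers KRT18 was called, 6 lay below every vehicle array and 1 above (13% and 6.99% of all genes), with a median of −0.71; their summed intensity was 105 to 149 on the vehicle arrays and 54.7 to 58.5 with both. Of the 11, 6 lay above the median signal. Keratin KRT19 stood at 6.24 ± 0.32 with vehicle and 4.94 ± 0.01 with both (SD, adjusted p = 0.28). The others were ESRP1 (4.49 with vehicle and 3.93 with both), KRT18 (3.50 and 1.92), MUC1 (2.34 and 1.63), KRT8 (1.60 and 0.23) and KRT7 (0.11 and 0.27). The epithelial adhesion molecule EPCAM lay below the median signal in both groups (−0.84 ± 0.48 and −1.71 ± 0.41). Leukocyte markers (13 genes, none called) summed to 11.3 to 14.1 with vehicle and 14.3 to 15.6 with both, with the pan-leukocyte antigen PTPRC at −3.43 ± 2.25 and −4.21 ± 1.68. Of the 13, 3 lay above the median signal. They were CD68 (2.05 with vehicle and 2.46 with both), ITGAX (1.48 and 1.59) and CD3E (0.71 and 1.06). The lowest p was that of ITGAM, at −1.95 ± 0.44 (adjusted p = 0.129). Endothelial markers (9 genes, none called) summed to 18.4 to 22.5 and 17.4 to 18.2, with EMCN lowest in p at −1.05 ± 0.47 (adjusted p = 0.388). Of the 9, 2 lay above the median signal, PECAM1 (3.57 with vehicle and 3.46 with both) and TEK (1.94 and 1.78). Stromal markers (10 genes, none called) summed to 287 to 511 and 375 to 388, and the endopeptidase MME came closest, going from 1.50, 0.24 and 0.49 to 2.39, 2.73 and 3.08, a change of 1.99 ± 0.37 (adjusted p = 0.0754). Whether a change in the mix of cells had a part in the calls was not tested.

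The genes of the added cytokines and their receptors were not among the calls. TNF itself stood at 2.69, 2.88 and 2.80 with vehicle and 2.82, 2.82 and 2.70 with both cytokines, a change of −0.01 ± 0.16 (adjusted p = 0.984). TNFRSF1A, the receptor through which soluble TNFα mainly signals, stood at 0.22 ± 0.69 (adjusted p = 0.929), with 1 vehicle array at 0.89 and the others at 3.40 and 2.83. TNFRSF1B, the second TNF receptor, stood at 1.14 ± 0.47 (adjusted p = 0.348). The probes of IL1B and IL1RN were each annotated to another gene as well, and that of IL1R1 had no value on any array, so these genes were not measured. The reference genes ACTB and GAPDH stood at −0.01 ± 0.32 (adjusted p = 0.992) and −0.29 ± 0.15 (adjusted p = 0.458), neither called.

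Where a called gene had a second single-gene probe, the 2 readings did not always match. Of 12 such probes 3 were called, those of HSD11B1, IFI27 (4.0 ± 0.41) and CTSS (4.34 ± 0.67), and all 12 were dimmer than the representative probe, as the rule for choosing it requires. A further 8 genes were called on a probe other than their representative one, and none of those was called on the representative. Higher were GRIA3, a glutamate receptor subunit (2.45 ± 0.28, adjusted p = 0.00944; 0.92 ± 0.40 on the representative probe), ST8SIA3, FRAS1 and CNTF (1.49 to 2.01). Lower were CDHR3, IK, CPA4 and PELO (−1.22 to −2.46). These genes are not counted among the 63.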

How the data were processed

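RNA of T-HESC cultures was measured on 12 single-colour CodeLink arrays, and the deposited files hold the authors' linear intensities, 1 value per probe and array. How the authors read the images, corrected background or normalised these intensities is not given in the sources used here. The code −9999 (0.716% of values) and values at or below 0 (1.10%) were set to missing and the rest taken to log2; the array medians lay between 0.045 and 0.095 on that scale, and no further scaling was applied. Of 54359 probes, 53671 with at least 2 values in every group were tested. Gene names came from the array's annotation table (23472 probes with 1 gene, 905 with several, 29982 with none; 23434 named by Entrez identifier), and each gene was read from the brightest, on average over the 12 arrays, of the probes annotated to it alone. A mean per group was estimated by limma 3.58.1 under R 4.3.3, using all 12 arrays for the variance, with two-sided moderated tests adjusted by Benjamini-Hochberg over all probes and a threshold of 0.05; tables were made with Python 3.11.15. The fit was checked on simulated arrays, with 50 probes changed at each size. These arrays were drawn independently, with 1 spread per probe shared by all groups and no missing values. The real groups differed in spread, so the rates below need not hold for them. It called 16% of 2-fold, 60% of 4-fold, 72% of 8-fold and 84% of 16-fold changes, with 5 false calls.

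Genes were named by rule: every called gene could be, array values were given for the 15 largest increases, up to 12 decreases and up to 3 called members of each list, and a list without a call was represented by its member of lowest p. Exceptions are marked in the text. The comparison, the gene lists and the rules were chosen with earlier results of these data known, so the lists are descriptive and no list was tested. Promoter sequences are RefSeq's on GRCh38.p14.

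Replicate numbers mark the same passage in every group per the labels, which is where the pairing comes from. Deviations from group means correlated between same-passage arrays at 0.0071 on average over 18 pairs, against −0.0029 over 36 pairs of different passages. Single pairs ranged from −0.196 to 0.310 and from −0.277 to 0.291. Vehicle 3 correlated at 0.310 with TNFα 3, of the same passage, and at 0.254 with IL1β 2, of another. TNFα 3 and IL1β 2, of different passages, correlated at 0.291. These 3 arrays thus shared deviations that did not follow the passage labels. Between vehicle and both cytokines the same-passage values were −0.030, 0.000044 and −0.011. The number of arrays limits the precision. Alternatives were quantile normalization, an offset of 0.1 added before taking logs, leaving dim probes out, the passage block and the 6 arrays alone. For the offset, values at or below 0 were first set to 0, so they were no longer missing. Others were a trended robust variance prior, array weights (the gene-by-gene method, since the default did not converge), 1 probe per gene and each array left out. A fit with the 3 arrays that lay apart left out was added with the data known.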

Additional observations from a re-analysis of the deposited data

How the results depend on the processing

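All 63 genes kept their direction in every alternative in which they could be tested. For the fits on fewer of the same arrays the lack of overlap between the groups fixed this in advance. Against vehicle, 133 probes and 63 genes were called. With the passage as a replicate block, limma called 87 probes and ended 25 of the 63 gene calls. The 6 arrays alone gave 24 probes and 16 genes, and dropping the 3 outlying arrays, a choice made after seeing the data, gave 50 and 26. Array weights gave 1677 and 749, a trended robust variance prior 219 and 117 while ending 4 of the 63 gene calls, leaving out dim probes 248 and 135, and 1 probe per gene 101 genes. Fewer arrays or fewer tests enter some of these fits by construction; for the others the cause was not tested. Leaving out 1 array gave 30 to 139 probes and 19 to 67 genes, fewest without both-cytokine replicate 2. A probe left with 1 value in a group was assumed to vary there as in the other groups. Quantile normalization (148 probes) and an offset before the log (171) changed the probe count by less than 1.5 times, and each ended 2 of the 63 gene calls; without dim probes 15 of the 63 could not be tested.

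Against TNFα alone, 1 probe was called, 3 with the offset, 2 after quantile normalization, 0 with the passage block and 0 to 3 with 1 array left out. Against IL1β alone the count was 0, and 0 to 4 with 1 array left out. The files carry no background or detection calls, so a signal near or below the median cannot be told from background, and changes of dim probes depend on the offset. With 3 arrays per group, the median SD over probes was 0.53 for vehicle and 0.18 for both cytokines.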
